A study of Mus musculus with 12 samples.

Results

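Myosins are the motor proteins that pull on actin filaments, and the genes described here encode their heavy chains and light chains. Every gene whose symbol is Myo, Myh or Myl followed by a number was taken, leaving out pseudogene and Rik symbols, which gave 50 of the 46072 genes measured: 25 Myo, 14 Myh and 11 Myl genes. RNA was sequenced from osteoclasts, macrophages and immature dendritic cells, each grown from marrow of C57BL/6J animals whose age was 6 to 8 weeks, with 4 libraries of each and 12 in all. Precursors of osteoclasts and macrophages were first grown for 5 days in 100 ng/ml M-CSF. Osteoclasts then received 30 ng/ml M-CSF with 50 ng/ml RANKL, and macrophages 30 ng/ml M-CSF alone. Immature dendritic cells received 20 ng/ml GM-CSF, and all 3 differentiated for 8 to 10 days in the same kind of medium. Osteoclast wells were briefly treated with Accutase, which takes off cells with a single nucleus. Per the labels, 1 mouse gave all 3 cell types of an experiment, and marrow was extracted 4 separate times.

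A conventional myosin of class II has a pair of heavy chains (Myh genes), each carrying an essential and a regulatory light chain (Myl genes), and assembles into bipolar filaments that contract actin bundles. The unconventional myosins (Myo genes) do not form such filaments: they tie membranes to actin, carry vesicles along it, or build protrusions. Osteoclasts attach to bone through a ring of podosomes, actin columns held under tension by myosin II, while macrophages and dendritic cells use myosins for phagocytosis and migration.

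Reads were single and 50 bases long, so genes with long identical stretches cannot be separated there. The regulatory light chains of non-muscle cells are the clearest case among the abundant myosin genes, because Myl12a and Myl12b lie side by side on the minus strand of chromosome 17 (chr17:70993656-71002878 and chr17:70973133-70990890 in GRCm38). Their coding sequences of 516 bases, without the stop codon, differ at 18 bases (96.5% identity), and 174 of the 467 stretches of 50 bases (37.3%) occur in both. The smooth muscle regulatory light chain Myl9 (chr2:156775420-156781658, plus strand) differs from Myl12a at 74 coding bases and shares 0 of its stretches of 50 with it. The first 120 coding bases of transcripts Myl12a-201, Myl12b-201 and Myl9-201 (GENCODE M21) follow, 5′ to 3′. Capitals mark the bases at which Myl12a and Myl12b differ from each other, 5 in this stretch, and at which Myl9 differs from Myl12a, 17 in this stretch.
Myl12a: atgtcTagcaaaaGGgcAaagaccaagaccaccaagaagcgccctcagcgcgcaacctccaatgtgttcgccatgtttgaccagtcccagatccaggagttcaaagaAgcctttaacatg
Myl12b: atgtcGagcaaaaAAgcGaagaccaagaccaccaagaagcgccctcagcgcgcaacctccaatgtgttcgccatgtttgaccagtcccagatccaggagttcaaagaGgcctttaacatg
Myl9: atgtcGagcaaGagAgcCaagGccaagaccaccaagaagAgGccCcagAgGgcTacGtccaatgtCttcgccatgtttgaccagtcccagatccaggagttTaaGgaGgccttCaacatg
Counted over all transcripts, 192 stretches of 50 bases occur in both genes, which is 5.65% of those of Myl12a and 7.07% of those of Myl12b. The split of such reads is uncertain, and the sources used here do not say how reads matching several genes were counted. GENCODE M21 also has a longer gene model of the same name, Myl12b, that runs over both genes. This model is not among the genes measured. Of the stretches of Myl12a 16.2% occur in it, and of those of Myl12b 25.4%. Myl6 shares 8.38% of its stretches with other genes, while Myo1d, Myo1e, Myo1f, Myo1g, Myo10, Myo15 and Myo16 share 0%.

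The deposited values are the authors' mean of each cell type in normalised counts (reads divided by a size factor), with a log2 fold change and adjusted p per pair of cell types. The ± beside a log2 fold change is a standard error worked out from the deposited p-value. A call means an authors' adjusted p under 0.05. The means sum to 24242540, 25022062 and 27731759 in osteoclasts, macrophages and dendritic cells, and the 12 size factors ran from 0.975 to 1.04. For every member mean of at most 1000, the whole reads of the 4 libraries could be recovered from the mean; these libraries are named a to d within each cell type and cannot be tied to the replicate numbers of the labels. The labelled cell types were borne out by their markers: the 10 osteoclast markers summed to 13695 counts per 1000000 (CPM) in osteoclasts, and to 245 and 1506 CPM in macrophages and dendritic cells. The 10 macrophage markers summed to 5180, 10891 and 2726 CPM and the 10 dendritic cell markers to 375, 235 and 17378 CPM, in the same order. Called higher in osteoclasts were 10 of 10 osteoclast markers against macrophages and 7 of 10 against dendritic cells. In dendritic cells 6 of these 10 were called higher than in macrophages. Of the 10 macrophage markers, 9 were called lower in osteoclasts and 8 lower in dendritic cells than in macrophages. The dendritic cultures also held 556 CPM of 10 neutrophil markers, against 3.84 in osteoclasts and 4.02 in macrophages, and 35.1 CPM of 10 mast cell and basophil markers, against 0.577 and 0.486. Markers of platelets and megakaryocytes (7 genes) summed to 28.1, 140 and 124 CPM for osteoclasts, macrophages and dendritic cells, with Gp9 at 0 in each. Those of B cells (6 genes) summed to 2.81, 37.6 and 12.1 CPM in that order. Compared with macrophages, 2 of 5 tested platelet markers and 2 of 3 tested B cell markers were called lower in osteoclasts, and 0 higher. The part of these other cells in the myosins that were higher in dendritic cells, higher in macrophages or lower in osteoclasts was not tested. In bulk samples, fewer cells of a type and less RNA per cell cannot be told apart.

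Macrophage library b was the highest macrophage library for some genes. It had 384 normalised reads of Dcstamp, a fusion gene, against 24.6, 35.1 and 149 in the other macrophage libraries, and 1557 of the class II gene H2-Aa against 96.3, 163 and 1020. Its Ctsk, a defining osteoclast protease, was not raised (131 against 132 to 146). An outlier test of myosin genes in 24 groups of 4 libraries with a mean of at least 10 flagged 0 groups. Groups with a lower mean, such as that of Myh6 in osteoclasts, were not tested. Among the osteoclast libraries, a had the most H2-Aa, 850 against 282 to 376. Values that rest on these libraries are given with the others beside them.

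Of the 50 genes, 45 had a mean above 0 in some cell type and 5 were listed at 0 in all 3 (Myh1, Myh2, Myh4, Myl1 and Myl7, all of striated muscle). Those with at least 10 CPM numbered 18 in osteoclasts, 16 in macrophages and again 18 in dendritic cells. Levels of different genes are compared as mean normalised counts per kilobase of exon (per kb). The exon length counts every exon base of all annotated transcripts of a gene once, whichever transcripts the cells made. Ranks and shares of genes on this scale depend on that length. On that scale the same gene, Myo1f, was the highest heavy chain in each cell type, at 3868, 4433 and 3928 per kb in osteoclasts, macrophages and dendritic cells. It accounted for 31.4%, 37.9% and 34.0% of the summed heavy chain level. The 8 class I genes together made up 72.3%, 67.5% and 65.6% of that sum in osteoclasts, macrophages and dendritic cells. The sum itself, over 39 Myo and Myh genes, was close in the 3 cell types on the authors' scale: 12301, 11695 and 11539 per kb. The summed means of all genes were lowest in osteoclasts and highest in dendritic cells, so equal totals would set these sums further apart. The make-up also differed. Myo1d took 7.32% of the osteoclast sum, Myo10 took 5.04% in osteoclasts and 2.88% in macrophages, Myo5a took 7.43% in macrophages, and Myh9 took 14.3% in dendritic cells against 7.78% in osteoclasts. These shares are levels without a test.

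**Figure D1:**
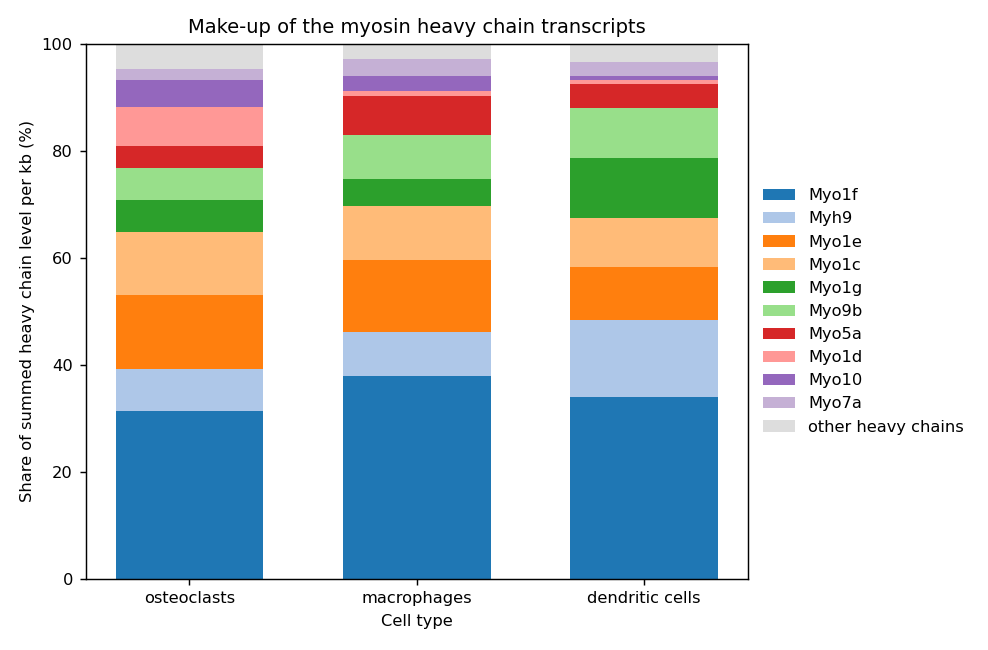
Share of the summed heavy chain level (mean normalised counts per kb of exon, in percent) taken by each gene in osteoclasts, macrophages and dendritic cells, with the smaller heavy chains added up in grey. Myo1f is the largest part in each bar, Myo1d and Myo10 are widest in osteoclasts, and Myh9 and Myo1g are widest in dendritic cells.

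Between osteoclasts and macrophages, 38 of the 50 genes were tested and 14 were called (36.8%), 7 higher and 7 lower in osteoclasts. Of all 17822 tested genes 29.3% were called, 14.5% higher and 14.7% lower. Between osteoclasts and dendritic cells, 21 of 41 were called (51.2%), 10 higher and 11 lower in osteoclasts, against 36.9% of 21217 genes, 16.8% higher and 20.1% lower. Between dendritic cells and macrophages, 17 of 41 were called (41.5%), 10 higher and 7 lower in dendritic cells, against 36.7% of 20730 genes, 20.3% higher and 16.4% lower. The last share is near that of all genes. Genes called with at least a 2-fold ratio of the means numbered 8 of 38, 12 of 41 and 12 of 41 tested members. Over all tested genes the shares were 12.3%, 20.6% and 20.4%. The median log2 fold change of the members tested was -0.05, -0.26 and 0.18 in the 3 comparisons, and -0.03, -0.05 and 0.05 over all genes. The comparisons share libraries pair by pair, so their counts are not independent of each other.

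**Figure D2:**
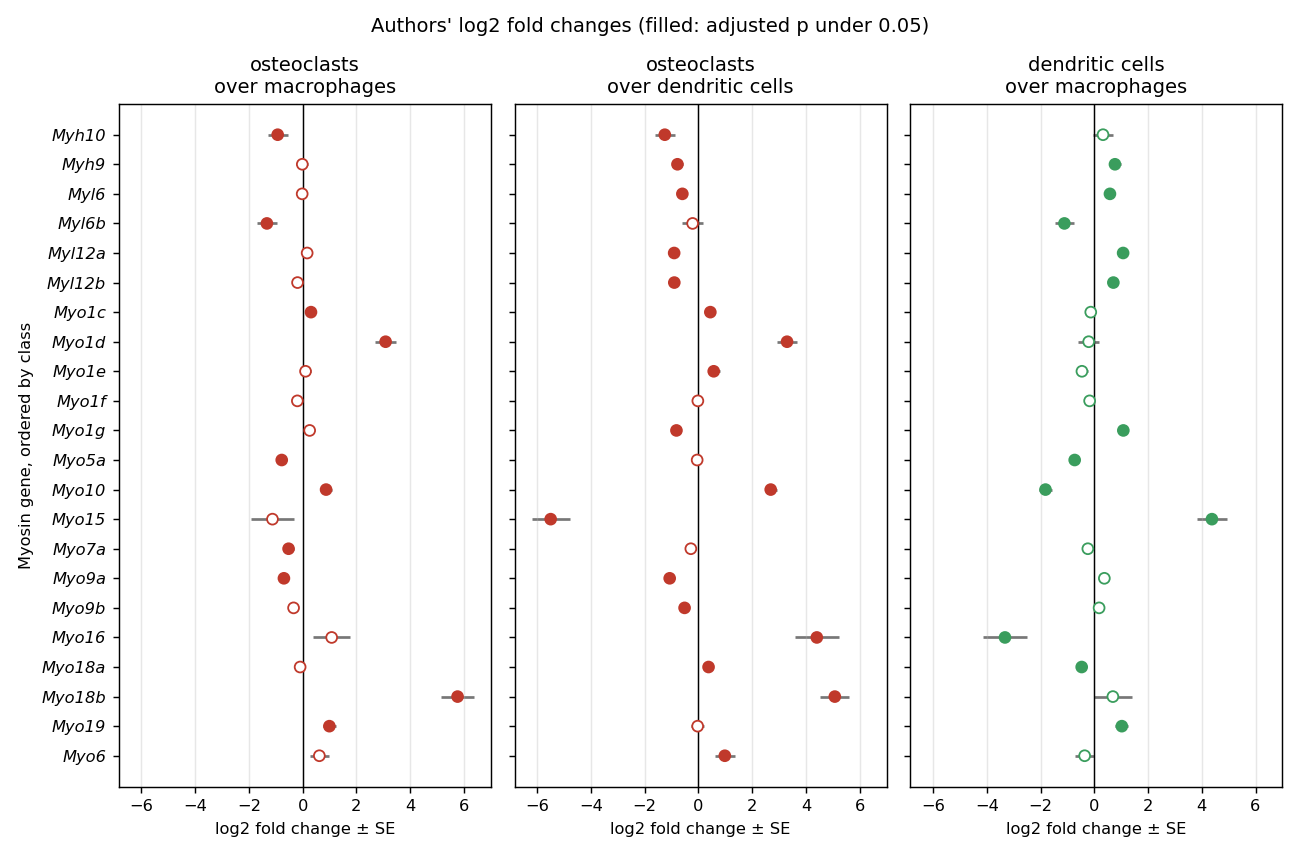
The authors' log2 fold changes of 22 myosin genes with implied standard errors, in 3 panels, 1 per pair of cell types; filled points passed adjusted p under 0.05. Myo1d, Myo10 and Myo18b lie to the right of 0 and filled in both osteoclast panels, and the abundant myosin II genes Myh9, Myl6, Myl12a and Myl12b are filled in both panels with dendritic cells and open in the other.

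Myo1d (chr11:80482126-80780025), a class I myosin, one of the single-headed motors that hold membranes to actin, had means of 5822, 637 and 549 for osteoclasts, macrophages and dendritic cells, from the authors' deposited table. Its osteoclast level was higher by 3.09 ± 0.38 than in macrophages (adjusted p = 4.64e-14) and by 3.30 ± 0.38 than in dendritic cells (adjusted p = 1.49e-16), log2 fold changes in the authors' deposited table. The macrophage libraries held 370, 1340, 316 and 524 normalised reads and the dendritic libraries 485, 446, 536 and 728. Library b is thus well above the other macrophage libraries, although the outlier test did not flag it. Without it the macrophage mean was 403 in place of 637, and the ratio of the osteoclast to the macrophage mean was 14.4 in place of 9.13. Between dendritic cells and macrophages Myo1d was not called, with -0.21 ± 0.38 (adjusted p = 0.74) in the authors' deposited table, and the log2 ratio of the means plus 1 went from -0.22 to 0.44 without library b.

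The class I genes Myo1c, Myo1e, Myo1f and Myo1g were abundant in all 3 cell types and differed less than Myo1d did between osteoclasts and the others. Myo1c, a widely expressed membrane tether, had means of 9584, 7721 and 7049 for osteoclasts, macrophages and dendritic cells, from the authors' deposited table. It was higher in osteoclasts by 0.31 ± 0.10 over macrophages (adjusted p = 0.0119) and 0.44 ± 0.10 over dendritic cells (adjusted p = 9.73e-05) in the authors' deposited table. Myo1e, a long-tailed myosin found at podosomes and phagocytic cups, was higher in osteoclasts only against dendritic cells by the test (9668 against 6494, 0.57 ± 0.22, adjusted p = 0.0293), with a mean of 8960 in macrophages, in the authors' deposited table. Myo1g, a short-tailed myosin of blood cells, was highest in dendritic cells, and the authors' deposited table gives 8971 there, 5066 for osteoclasts and 4220 for macrophages. Its log2 fold change of dendritic cells over macrophages was 1.08 ± 0.18 (adjusted p = 9.71e-09), and that of osteoclasts over dendritic cells was -0.82 ± 0.18 (adjusted p = 2.24e-05), in the authors' deposited table. Myo1f, its long-tailed relative, was not called in any pair, with means of 19222, 22030 and 19524, taken from the authors' deposited table and log2 fold changes from -0.20 to -0.02, the last of which turns sign under both other scalings. Myo1a, known from the gut brush border, and Myo1h had means of at most 8.43 and were not called.

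**Figure D3:**
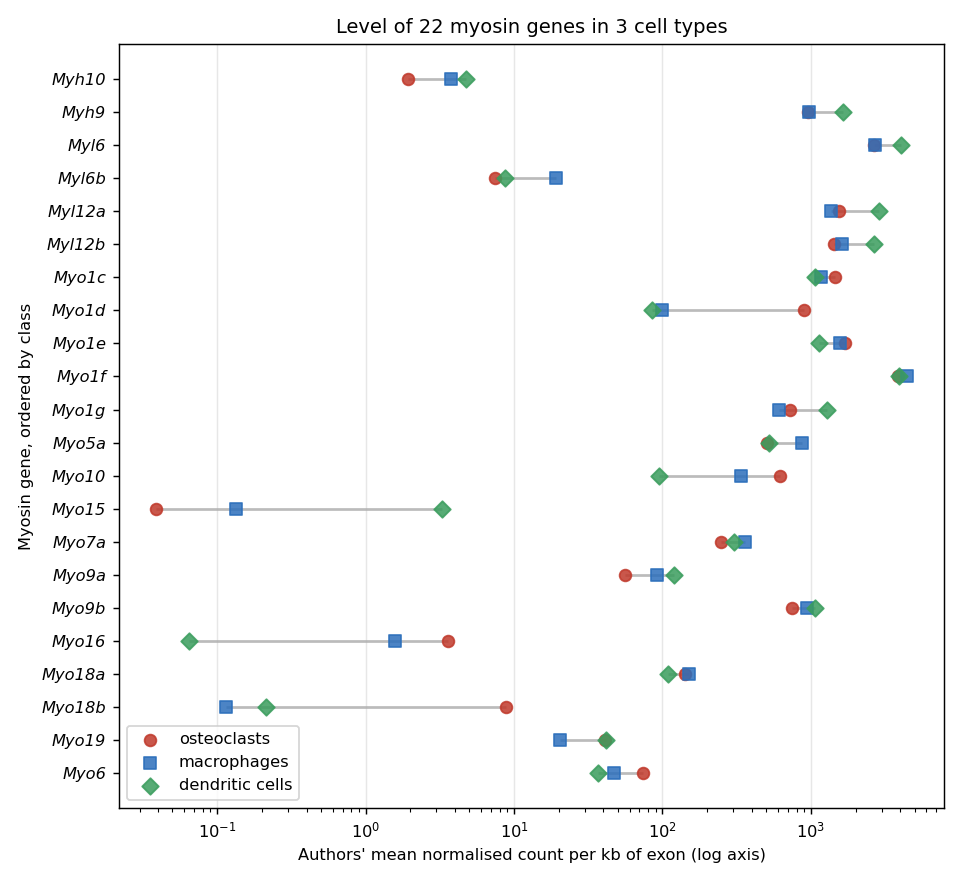
Authors' mean normalised count per kb of exon (log axis) of 22 myosin genes in osteoclasts (circles), macrophages (squares) and dendritic cells (diamonds), ordered by class, with a grey line over the range of the 3. The widest lines belong to Myo15, Myo16 and Myo18b, and Myo1f has the highest heavy chain level with its 3 symbols close together.

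The abundant myosin II genes were higher in dendritic cells than in both other cell types and were not called between osteoclasts and macrophages. Myh9 (chr15:77760587-77842175), the heavy chain of non-muscle myosin IIA, had means of 12375, 12480 and 21386 for osteoclasts, macrophages and dendritic cells, from the authors' deposited table. Its log2 fold change was -0.01 ± 0.21 for osteoclasts over macrophages (adjusted p = 0.987), with a sign that turns when totals are made equal, and 0.77 ± 0.21 for dendritic cells over macrophages (adjusted p = 0.00116) in the authors' deposited table. Its partner Myl6, the essential light chain, had means of 8475, 8572 and 12858 and was higher in dendritic cells than in macrophages by 0.58 ± 0.14 (adjusted p = 0.000102) in the authors' deposited table. The regulatory light chains, whose phosphorylation switches the motor on, went the same way. Myl12a had means of 5158, 4586 and 9674 and Myl12b of 3932, 4484 and 7345 in the authors' deposited table. Over macrophages the dendritic log2 fold change was 1.07 ± 0.13 for Myl12a (adjusted p = 3.64e-15) and 0.71 ± 0.13 for Myl12b (adjusted p = 1.79e-07) in the authors' deposited table. Against dendritic cells, Myh9, Myl6, Myl12a and Myl12b were lower in osteoclasts by -0.78, -0.60, -0.90 and -0.90 on the log2 scale in the authors' deposited table, each with its implied SE between 0.13 and 0.21. For osteoclasts over macrophages the 3 light chains had log2 fold changes of -0.02, 0.17 and -0.19 and none was called in the authors' deposited table; the first, of Myl6, turns sign with equal totals. Since Myl12a and Myl12b share sequence, each may hold reads of the other. Per kb, the light chains summed to 5623, 5699 and 9587 in osteoclasts, macrophages and dendritic cells. Several marker lists were also higher in dendritic cells than in macrophages. Called higher were 9 of 10 neutrophil, 8 of 9 tested mast cell and basophil and 10 of 10 dendritic cell markers, and 0 were lower. Not every list went this way: 2 of 4 tested B cell markers were called lower. Of the neutrophil markers, Camp and Ly6g were at 0 in macrophages and Elane in osteoclasts. The part of other cells in the myosin II values was not tested.

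The other non-muscle and smooth muscle heavy chains were scarce beside Myh9, which held 99.7%, 99.6% and 99.7% of that group's level per kb in osteoclasts, macrophages and dendritic cells. Myh10, the heavy chain of non-muscle myosin IIB, had 13.1, 25.0, 28.8 and 13.9 normalised reads in the osteoclast libraries, 32.4, 40.0, 27.3 and 57.5 in the macrophage libraries and 72.8, 53.1, 43.8 and 28.5 in the dendritic libraries. The osteoclast libraries overlap narrowly with both other groups, at 28.8 against 27.3 and 28.5. It was lower in osteoclasts by -0.93 ± 0.37 against macrophages (adjusted p = 0.044) and by -1.25 ± 0.37 against dendritic cells (adjusted p = 0.00274) in the authors' deposited table. The first of these calls was lost without the authors' filter on low means and with equal totals for the cell types. Myh11 of smooth muscle and Myh14 had means of at most 2.75 and were not called. Myl6b, a second essential light chain encoded next to Myl6 (chr10:128494157-128498685), was highest in macrophages. Its libraries held 27.5, 41.9, 45.8 and 26.8 normalised reads in macrophages and 12.9 to 14.9 in osteoclasts, without overlap. The dendritic libraries, at 7.18, 14.3, 15.3 and 27.5, reached into the macrophage range. Osteoclasts over macrophages gave -1.33 ± 0.37 (adjusted p = 0.00217) and dendritic cells over macrophages -1.11 ± 0.37 (adjusted p = 0.0082) in the authors' deposited table.

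Myo10 (chr15:25622525-25813673), which travels to the tips of filopodia and has been studied in the sealing zone of osteoclasts, was ordered osteoclasts, macrophages, dendritic cells, with means of 6277, 3404 and 953, taken from the authors' deposited table. Its dendritic libraries held 818, 1064, 952 and 979 normalised reads. Every step was called in the authors' deposited table: 0.87 ± 0.23 for osteoclasts over macrophages (adjusted p = 0.000813), 2.69 ± 0.23 for osteoclasts over dendritic cells (adjusted p = 7.73e-31) and -1.82 ± 0.23 for dendritic cells over macrophages (adjusted p = 1.75e-14). Other classes with a MyTH4 domain, a tail module of several protrusion-building myosins, did not follow it. Myo7a, known for the stereocilia of the inner ear and for phagocytosis in the retina, had means of 2132, 3073 and 2599 and was lower in osteoclasts than in macrophages by -0.52 ± 0.21 (adjusted p = 0.0444) in the authors' deposited table. That call was lost without the authors' filter on low means and with the totals made equal.

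Myo15 (chr11:60469339-60528369), a stereocilia motor, was a low transcript of dendritic cells. It had 39.0, 32.7, 50.9 and 44.8 normalised reads in the dendritic libraries, all far above the macrophage libraries, which held 7 reads in all, and the osteoclast libraries, which held 2. The ratio of dendritic to osteoclast reads was 83.8, with a 95% interval of 22.8 to 698 that covers counting error only. In the authors' deposited table the log2 fold change was 4.38 ± 0.56 for dendritic cells over macrophages (adjusted p = 1.03e-13) and -5.50 ± 0.71 for osteoclasts over dendritic cells (adjusted p = 1.45e-13). At 1.51 CPM and 3.28 per kb, it remained a small part of the dendritic myosins.

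**Figure D4:**
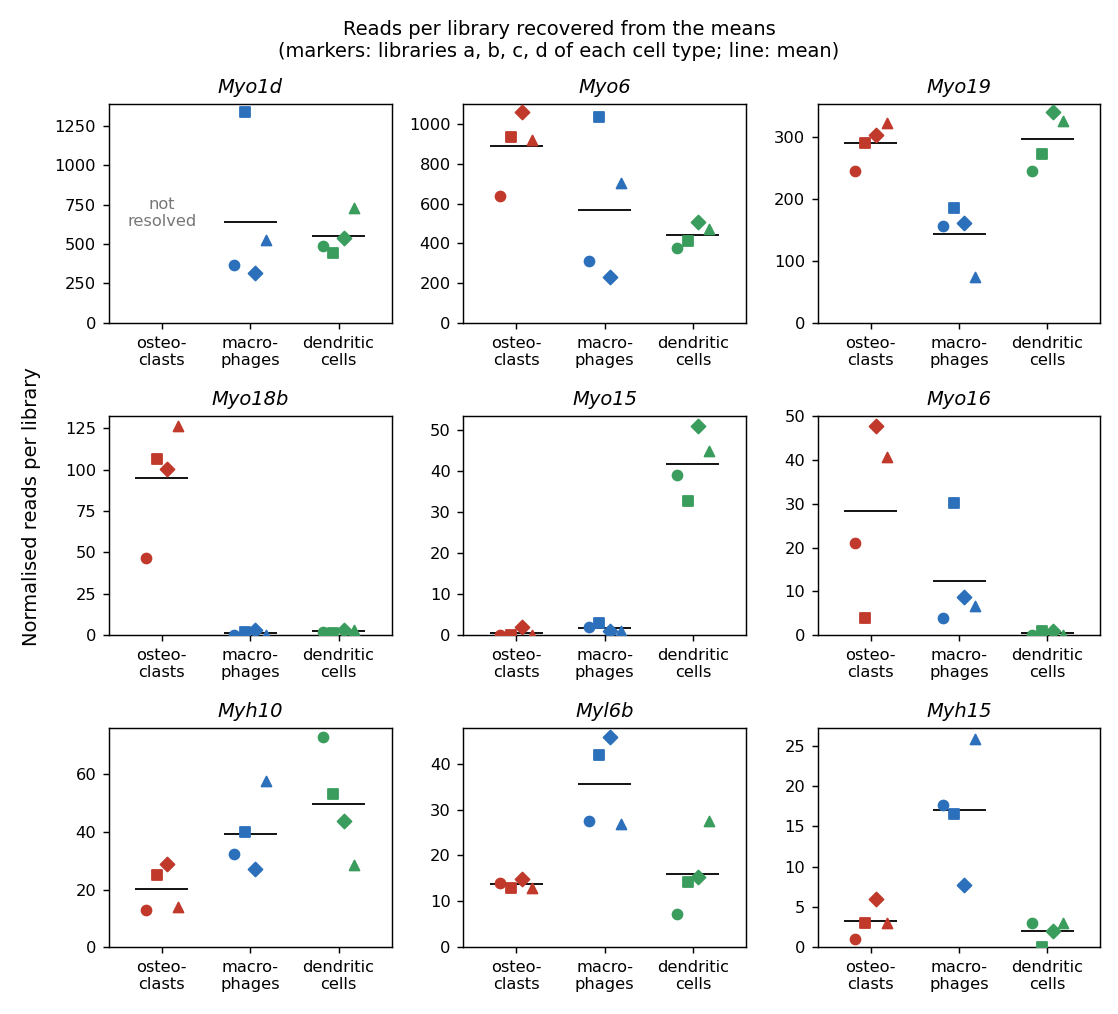
Normalised reads of 9 myosin genes in each library, recovered from the authors' means; circles, squares, diamonds and triangles are libraries a, b, c and d within a cell type, and a line marks the mean. The osteoclast mean of Myo1d is above the limit of 1000 for recovery. Macrophage library b, the square, is the highest macrophage library for several of these genes, among them Myo1d, Myo6, Myo16 and Myo19.

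Myo18b (chr5:112688876-112896362), a myosin without motor activity known for the sarcomeres of striated muscle, was found almost entirely in osteoclasts. Its osteoclast libraries held 46.4, 106, 100 and 126 normalised reads, the macrophage libraries 0, 1.95, 2.92 and 0, and the dendritic libraries 2.05, 1.02, 3.05 and 3.05. The groups are far apart, with the lowest osteoclast library, a, also the one with the most H2-Aa. In the authors' deposited table the log2 fold change was 5.77 ± 0.61 over macrophages (adjusted p = 2.03e-19) and 5.07 ± 0.54 over dendritic cells (adjusted p = 1.96e-19). An antisense gene, 1700095B10Rik, overlaps 248 of its exon bases, and the sources used here do not say whether counting used the strand. The defining muscle markers Myog and Actc1 were listed at 0 in all 3 cell types, and 12 skeletal and cardiac muscle markers summed to 9.79, 10.4 and 14.4 CPM in osteoclasts, macrophages and dendritic cells. Of these 12, 1 of 6 tested was called higher and 1 lower in osteoclasts than in macrophages, and 1 of 8 higher and 3 lower than in dendritic cells. The higher one was Ttn, the giant sarcomere protein titin, with means of 22.7, 5.83 and 1.79 for osteoclasts, macrophages and dendritic cells, taken from the authors' deposited table, the same direction as Myo18b. Its log2 fold change was 1.88 ± 0.47 over macrophages (adjusted p = 0.000486) and 3.36 ± 0.58 over dendritic cells (adjusted p = 7.32e-08) in the authors' deposited table. The lower one in both was Tnnt3, a troponin of fast muscle, and the part of muscle transcripts in the values of Myo18b was not tested. Myo18a, its widely expressed relative, had means of 2281, 2433 and 1755, taken from the authors' deposited table. It was lower in dendritic cells than in macrophages by -0.47 ± 0.16 (adjusted p = 0.00952) and higher in osteoclasts than in dendritic cells by 0.38 ± 0.16 (adjusted p = 0.0455) in the authors' deposited table, and the second call was lost without the filter on low means.

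Myo16 (chr8:10153911-10634742), best known from the brain, had 21.2, 4.01, 47.7 and 40.7 normalised reads in the osteoclast libraries and 3.93, 30.2, 8.77 and 6.71 in the macrophage libraries, which overlap. The dendritic libraries held 2 reads in all. The ratio of osteoclast to dendritic reads was 55.8 (95% counting interval 15.1 to 466) and that of macrophage to dendritic reads 24.3 (6.39 to 206). The log2 fold change over dendritic cells was 4.40 ± 0.82 for osteoclasts (adjusted p = 5.31e-07), and that of dendritic cells over macrophages was -3.32 ± 0.82 (adjusted p = 0.000266), in the authors' deposited table. Between osteoclasts and macrophages it was not called (adjusted p = 0.247) in the authors' deposited table. Without macrophage library b the macrophage mean was 6.47 in place of 12.4.

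Myo6, the motor that walks toward the pointed end of actin in endocytosis, had 638, 935, 1061 and 922 normalised reads in osteoclasts and 374, 409, 508 and 473 in dendritic cells. The osteoclast libraries were all above the dendritic ones, with a log2 fold change of 0.98 ± 0.36 (adjusted p = 0.0208) in the authors' deposited table. The macrophage libraries split, at 310, 1035, 233 and 703, with b again the highest and d next, the same order as for H2-Aa. Over macrophages the osteoclast log2 fold change of Myo6 was 0.62 ± 0.36 and was not called (adjusted p = 0.2) in the authors' deposited table.

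Myo19, which anchors mitochondria to actin, was lowest in macrophages, with 157, 185, 162 and 73.8 normalised reads against 245, 290, 303 and 324 in osteoclasts and 246, 274, 341 and 326 in dendritic cells. No macrophage library reached either of the other groups. It was higher in osteoclasts by 1.00 ± 0.24 (adjusted p = 0.000269) and in dendritic cells by 1.02 ± 0.24 (adjusted p = 9.43e-05) than in macrophages in the authors' deposited table.

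Myo5a (chr9:75071015-75223688), the class V motor that carries vesicles, was called higher in macrophages than in both other cell types, and the authors' deposited table gives means of 12864 there, 7485 for osteoclasts and 7740 for dendritic cells. It was lower than in macrophages by -0.78 ± 0.15 in osteoclasts (adjusted p = 4.28e-06) and by -0.73 ± 0.15 in dendritic cells (adjusted p = 9.48e-06) in the authors' deposited table. Myo5c had means of 2.74 to 4.85 and was not called.

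The class IX myosins carry a GTPase-activating domain in their tails, and both had their lowest means in osteoclasts. Myo9a had 730, 699, 812 and 695 normalised reads in osteoclasts, and means of 734, 1193 and 1549, taken from the authors' deposited table. It was lower in osteoclasts by -0.70 ± 0.18 against macrophages (adjusted p = 0.000613) and by -1.07 ± 0.18 against dendritic cells (adjusted p = 1.13e-08) in the authors' deposited table. Myo9b, more abundant per kb than Myo9a in macrophages (947 against 91.5), had means of 5616, 7101 and 8045 and was lower in osteoclasts than in dendritic cells by -0.52 ± 0.14 (adjusted p = 0.000885) in the authors' deposited table. Against macrophages it stood just outside the threshold, with -0.34 ± 0.14 (adjusted p = 0.0517) in the authors' deposited table, and was called under upper-quartile scaling.

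The 10 striated muscle heavy chains were near the floor: none of their means was above 17.0 in the authors' deposited table. Of all members, 6 genes under 1 CPM were called in some pair: Myh6, Myh7b and Myh15 of these heavy chains, and Myl2, Myl10 and Myo5b. They are named although their levels were low. Myh6, the cardiac alpha heavy chain, had 2.02, 12.0, 1.99 and 1.99 normalised reads in osteoclasts and 0 in all 8 other libraries. Taking 3 counts over the group as the floor, the osteoclast mean was 6.16 times the macrophage floor and 5.87 times the dendritic floor. These ratios leave out the counting error of the osteoclast reads, most of which were in library b. Without library b the osteoclast mean was 2.00 in place of 4.50. Of the 50-base stretches of Myh6, 20.2% occur in another gene, all of them in Myh7, which had a mean of 0 in osteoclasts. The part of shared reads in the Myh6 values was not tested. Myh15 had 17.7, 16.6, 7.79 and 25.9 normalised reads in macrophages, above all osteoclast libraries (1.01 to 5.96) and dendritic libraries (0 to 3.08). Myl2, the ventricular regulatory light chain, was likewise highest in macrophages, at 14.7, 8.77, 8.76 and 4.79 normalised reads against 0.993 to 3.00 in osteoclasts. Myl10 had 26.7, 0, 16.3 and 9.16 normalised reads in dendritic cells and 1 read in all in each other cell type, so 1 dendritic library had none. Myh7b and Myo5b had dendritic means of 4.34 and 6.89 and were called against macrophages and osteoclasts, respectively, in the authors' deposited table. For Myo5b the macrophage libraries averaged 3.40 normalised reads, and 1.29 without library b. The remaining 21 genes were not called in any pair, and none of their means was above 9.69 in the authors' deposited table.

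Genes that act on myosins were described from 3 lists, each read beside the share of all genes called in the same pair (29.3% for osteoclasts and macrophages, 36.9% for osteoclasts and dendritic cells, 36.7% for dendritic cells and macrophages). Of 37 regulators of myosin, such as kinases and phosphatase subunits acting on the regulatory light chain, 34 were tested between osteoclasts and macrophages, with 4 higher and 5 lower in osteoclasts. Against dendritic cells 7 of 37 were higher and 9 lower, and between dendritic cells and macrophages 8 of 37 were higher and 4 lower in dendritic cells. The shares called, 26.5%, 43.2% and 32.4% in these pairs, are near those of all genes. Ppp1r12b, a targeting subunit of the myosin phosphatase, had means of 8911, 859 and 1040 for osteoclasts, macrophages and dendritic cells, from the authors' deposited table. It was higher in osteoclasts by 3.33 ± 0.26 (adjusted p = 8.13e-35) and 3.05 ± 0.26 (adjusted p = 3.35e-30) over macrophages and dendritic cells in the authors' deposited table. Ppp1r14b, an inhibitor of that phosphatase, was higher in osteoclasts than in macrophages by 1.16 ± 0.25 (adjusted p = 6.14e-05) in the authors' deposited table. Svil, supervillin, which binds myosin II at podosomes, had means of 622, 1426 and 3686 and was lower in osteoclasts by -1.19 ± 0.12 against macrophages (adjusted p = 4.09e-20) and by -2.56 ± 0.12 against dendritic cells (adjusted p = 1.45e-94) in the authors' deposited table. Mylip, a ubiquitin ligase, was lower in osteoclasts than in macrophages by -1.79 ± 0.23 (adjusted p = 5.53e-13), and Cald1, caldesmon, was lower in osteoclasts than in dendritic cells by -3.41 ± 0.33 (adjusted p = 4.53e-24), in the authors' deposited table. Pak1, a kinase that acts on myosin and actin regulators, was higher in osteoclasts than in dendritic cells by 1.40 ± 0.19 (adjusted p = 6.36e-12) in the authors' deposited table. Between dendritic cells and macrophages, Svil and Cald1 were higher by 1.37 ± 0.12 and 1.77 ± 0.31 and Mylip and Pak1 lower by -2.20 ± 0.23 and -0.85 ± 0.19 in the authors' deposited table.

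Of 23 cargo adaptors of unconventional myosins, 3 of 21 tested were higher and 8 lower in osteoclasts than in macrophages, 5 of 23 higher and 5 lower than in dendritic cells, and 7 of 22 higher and 8 lower in dendritic cells than in macrophages. These are 52.4%, 43.5% and 68.2% called, against 29.3%, 36.9% and 36.7% of all genes. Rab27a, a small GTPase to which Myo5a is linked, had means of 66.4, 202 and 506, taken from the authors' deposited table, an order that Myo5a itself did not have. It was lower in osteoclasts than in dendritic cells by -2.90 ± 0.21 (adjusted p = 1.64e-41), as was Mlph, melanophilin, which joins the pair, by -3.27 ± 0.44 (adjusted p = 7.17e-13), in the authors' deposited table. Dab2, an endocytic adaptor of Myo6, was lower in osteoclasts than in macrophages by -1.99 ± 0.28 (adjusted p = 3.13e-11) in the authors' deposited table. Whrn, whirlin, a partner of Myo15 in stereocilia, was higher in osteoclasts than in macrophages by 2.15 ± 0.51 (adjusted p = 0.000221) in the authors' deposited table. Whrn was also called higher in osteoclasts than in dendritic cells, while Myo15 was highest in dendritic cells. Dynll2, a dynein light chain that also serves class V myosins, was higher in osteoclasts than in dendritic cells by 0.60 ± 0.10, and Sh3kbp1, a signalling adaptor, was higher in osteoclasts than in macrophages by 0.48 ± 0.12, in the authors' deposited table. Dlg4, a scaffold protein, was lower in dendritic cells than in macrophages by -1.78 ± 0.20 in the authors' deposited table.

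Of 14 tropomyosins, actins and actinins, 5 of 11 tested were higher and 0 lower in osteoclasts than in macrophages, 2 of 13 higher and 6 lower than in dendritic cells, and 7 of 13 higher and 1 lower in dendritic cells than in macrophages. The shares called were 45.5%, 61.5% and 61.5%, beside 29.3%, 36.9% and 36.7% over all genes. Tpm1, a tropomyosin that governs which myosins reach the filament, had means of 4930, 2063 and 1278, taken from the authors' deposited table. It was higher in osteoclasts by 1.25 ± 0.15 over macrophages (adjusted p = 3.16e-15) and by 1.94 ± 0.15 over dendritic cells (adjusted p = 1.22e-36) in the authors' deposited table. Actn4, an actin cross-linker, was higher by 0.55 ± 0.14 and 0.77 ± 0.14 in the same comparisons (adjusted p = 0.000942 and 5.55e-07) in the authors' deposited table. Actg2, the smooth muscle gamma actin, had means of 1.75, 1.95 and 462, and Tpm2 of 24.5, 9.03 and 150, in the authors' deposited table, both highest in dendritic cells. The log2 fold change of osteoclasts over dendritic cells was -7.51 ± 0.57 for Actg2 and -2.54 ± 0.39 for Tpm2 in the authors' deposited table. The 7 smooth muscle markers summed to 9.03, 9.60 and 11.5 CPM in osteoclasts, macrophages and dendritic cells, and Cnn1, a defining one, had means of at most 0.747 in the authors' deposited table. Of these markers, 2 of 4 tested, Acta2 and Tagln, were called higher and 0 lower in dendritic cells than in macrophages, and 1 of 4, Acta2, was called lower and 0 higher in osteoclasts than in dendritic cells, the direction of Actg2 and Tpm2. Acta2, the smooth muscle alpha actin, stands in both lists and averaged 30.5, 24.8 and 115, as the authors' deposited table gives it. The part of smooth muscle transcripts in these values was not tested.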

How the data were processed

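The data were 1 deposited table that per the file headers gives means per cell type and, for each pair, a log2 fold change with raw and adjusted p-values. The authors' means are counts divided by size factors and averaged over 4 libraries, which follows from the values. The authors' log2 fold changes and p-values are used as deposited. Tools named, per the submitters' processing notes, are DESeq2 2.13, Cufflinks 2.1.1, TopHat2, Bowtie2 and bcl2fastq, with GRCm38; the roles, annotation and strand setting are not given. A standard error is the fold change over the normal quantile of its p, which assumes a two-sided Wald test. The planned edgeR fit of counts per library did not apply to means.

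CPM is a mean per 1000000 of the summed means of its cell type. Levels per kb used exon lengths of GENCODE M21, joined over all transcripts of a gene. A gene without an adjusted p counts as not tested. Whole reads were recovered from means of at most 1000 as the only 4 read numbers that give all 15 digits of the mean. On simulated reads 40, 38 and 40 sets were recovered for osteoclasts, macrophages and dendritic cells, and 0 wrongly. For macrophages 1 further simulated set had no single solution. Over the recovered libraries, 86 exact two-sided permutation tests gave a smallest p of 0.0286, the least that 4 against 4 allows, which is 0.112 after Benjamini-Hochberg adjustment, so they could not call a gene. Same-numbered samples come from 1 mouse, but no column carries a number.

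Genes and lists were chosen with earlier results of these data known. Values are given in full for members with at least 10 CPM, or with at least 1 CPM and a call, and for the 2 smallest adjusted p in each direction per related list; genes called under 1 CPM are named after their values were seen, and 2 items are not reported here. Symbols matched 45138 identifiers and 934 had none. Alternatives were a stricter threshold, filters, scalings, a minimum fold and leaving out each recovered library. Python 3.11.15, pandas 2.3.3, SciPy 1.17.1 and NumPy 2.4.6 were used.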

Additional observations from a re-analysis of the deposited data

How the results depend on the processing

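With at least a 2-fold ratio of the means asked for as well, 8 myosin genes were called between osteoclasts and macrophages in place of 14, and 12 between osteoclasts and dendritic cells in place of 21; every lost gene had a ratio under 2-fold by construction. A threshold of 0.01, no filter on low means, only genes with at least 1 CPM, totals made equal and upper-quartile scaling gave 10 to 15 genes in the first pair and 17 to 21 in the second. In the dendritic and macrophage pair, where the main count was 17, they and the 2-fold rule gave 12 to 19. Apart from the 2-fold rule, no share of all genes called is set beside these counts, so they describe the members only. Making the totals of the cell types equal shifts all log2 fold changes by 0.05, 0.19 and -0.15 in the 3 pairs. Of all genes called it moves the share that is higher from 45.4% to 61.4% for osteoclasts over dendritic cells and from 55.4% to 42.8% for dendritic cells over macrophages. With it the uncalled osteoclast over macrophage values of Myh9 and Myl6 became 0.034 and 0.029, and the uncalled osteoclast over dendritic values of Myo19, Myo1f and Myo5a became 0.16, 0.17 and 0.15. Upper-quartile scaling turned 2 of these to 0.0044 (Myo19) and 0.011 (Myo1f). Making totals equal also called Myo1c (-0.28) and Myo1e (-0.61) lower in dendritic cells than in macrophages. Leaving out each recovered library in turn kept all 352 log2 ratios of named genes within the spread between libraries or in the same direction. A ratio could pass this rule with its sign turned, as that of Myo1d for dendritic cells over macrophages did without macrophage library b. Means above the limit for recovery, those of the most abundant genes, could not be tested in this way. The rule therefore says little about how stable the values are. The authors' own calls could not be refitted without a library. No paired analysis was possible because the table holds means and carries no replicate numbers. Genes of a few reads, such as Myh6, Myh7b, Myl10 and Myo5b, are limited by depth.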
